A study of Homo sapiens with 6 samples.

Results

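Matrix metalloproteases (MMPs), ADAMs, the ADAMTS-like proteins and the tissue inhibitors of metalloproteases (TIMPs) were followed in Caco-2 cells, a human colon carcinoma line whose confluent cultures take on features of small intestinal enterocytes. A gene belonged to the set where a probe set with a single gene symbol carried MMP, ADAM, ADAMTS, ADAMTSL or TIMP followed by a number. This gave 47 of 14884 named genes, of which 18 were MMPs, 20 ADAMs, 5 ADAMTS-like genes and 4 TIMPs. All but ADAM6, a transcribed pseudogene, were protein-coding. A further 7 symbols with added letters (pseudogenes, an antisense RNA and a lettered copy) were left out, and the ADAMTS proteases and some other family genes were not analysed here.

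All cells had been infected with a lentivirus while subconfluent and were harvested 17 days later. The virus carried FAM46A-shRNA#2, FAM46A-shRNA#4 or a scramble shRNA, and each of these 3 groups held 2 Affymetrix arrays of total RNA. FAM46A encodes a non-canonical poly(A) polymerase, and the hairpins, short RNAs that direct the decay of a matching transcript, address which transcripts depend on it. FAM46A itself was not analysed here, so the groups rest on the labels. The labels call the arrays biological replicates and do not say what separates them, so the p-values cover no more than the spread among these samples. Every value is taken to be on the log2 scale. The labels and files name no base, so base 2, and each fold change with it, is an assumption. The median of the 6 arrays was set to 0 for each probe set. Differences between groups can therefore be read, while the level of a gene, and whether it was above background, cannot. In cultures measured in bulk, fewer cells of a type and less RNA per cell cannot be told apart. Errors after ± are the standard errors that limma gave (n = 2 arrays in each group), and a gene was called where its Benjamini-Hochberg adjusted p over all named genes was under 0.05.

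MMPs are zinc proteases that cut collagens, laminins and other matrix proteins, some secreted and some anchored in the membrane. Membrane ADAMs cut the ectodomains of growth factor precursors, Notch and adhesion molecules from the cell surface, while several ADAMs lack a working catalytic site and serve as adhesion receptors. TIMPs bind the catalytic site of these enzymes and block it, and ADAMTS-like proteins share the matrix-binding domains of ADAMTS proteases without the protease itself. In the gut, shedding by ADAM10 and ADAM17 feeds Notch and epidermal growth factor receptor signalling, and several MMPs are known from inflamed or invading epithelium.

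Promoter sequences from RefSeq (GRCh38.p14), the 250 bases before the gene start, matched 30 of the 47 genes. Those of 7 genes are shown as examples, while those of the called genes ADAM8, ADAM15, MMP14 and TIMP3 are not printed. ADAM17 (chr2:9555831-9556080, minus strand) and ADAM19 (chr5:157575776-157576025, minus strand) rose with both hairpins. ADAM23 (chr2:206443282-206443531, plus strand) and ADAMTSL5 (chr19:1513020-1513269, minus strand) fell with both. ADAM10 (chr15:58749708-58749957, minus strand) and ADAM22 (chr7:87934001-87934250, plus strand) fell with FAM46A-shRNA#4 and differed between the hairpins. MMP10 (chr11:102780629-102780878, minus strand) is a neighbour of MMP1 on chromosome 11 and was not called. Each sequence runs 5′ to 3′ on the strand of its gene, and capitals mark a GC box (GGGCGG, or CCGCCC for the opposite strand) or the letters TATAAA.
ADAM17: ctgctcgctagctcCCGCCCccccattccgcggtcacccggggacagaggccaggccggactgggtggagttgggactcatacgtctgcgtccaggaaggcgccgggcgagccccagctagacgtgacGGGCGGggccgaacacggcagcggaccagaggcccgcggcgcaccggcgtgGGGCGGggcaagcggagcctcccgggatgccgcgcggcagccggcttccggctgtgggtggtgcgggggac
ADAM19: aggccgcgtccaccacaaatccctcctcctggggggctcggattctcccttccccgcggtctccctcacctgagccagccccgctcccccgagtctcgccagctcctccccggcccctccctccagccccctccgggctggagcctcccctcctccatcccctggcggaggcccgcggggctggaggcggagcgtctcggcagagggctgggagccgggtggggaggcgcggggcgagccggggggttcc
ADAM23: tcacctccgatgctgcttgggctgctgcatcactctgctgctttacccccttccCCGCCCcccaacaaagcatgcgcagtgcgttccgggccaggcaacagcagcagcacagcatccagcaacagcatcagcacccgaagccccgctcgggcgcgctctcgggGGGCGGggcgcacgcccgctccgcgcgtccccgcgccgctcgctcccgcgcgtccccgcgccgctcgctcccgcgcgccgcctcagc
ADAMTSL5: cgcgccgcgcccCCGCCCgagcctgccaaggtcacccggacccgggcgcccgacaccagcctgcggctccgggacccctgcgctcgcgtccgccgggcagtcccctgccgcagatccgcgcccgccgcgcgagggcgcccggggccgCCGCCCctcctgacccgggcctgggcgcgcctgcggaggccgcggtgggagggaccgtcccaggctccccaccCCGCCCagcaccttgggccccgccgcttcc
ADAM10: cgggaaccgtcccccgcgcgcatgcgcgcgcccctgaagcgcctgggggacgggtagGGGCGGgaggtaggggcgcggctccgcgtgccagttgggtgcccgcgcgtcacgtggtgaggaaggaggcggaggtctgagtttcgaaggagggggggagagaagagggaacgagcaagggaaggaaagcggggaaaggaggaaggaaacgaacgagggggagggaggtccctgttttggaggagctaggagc
ADAM22: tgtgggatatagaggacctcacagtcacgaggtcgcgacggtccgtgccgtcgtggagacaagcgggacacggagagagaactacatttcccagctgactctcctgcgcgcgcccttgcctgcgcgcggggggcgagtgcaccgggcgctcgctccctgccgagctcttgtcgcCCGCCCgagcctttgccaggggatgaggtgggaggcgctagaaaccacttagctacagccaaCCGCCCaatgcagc
MMP10: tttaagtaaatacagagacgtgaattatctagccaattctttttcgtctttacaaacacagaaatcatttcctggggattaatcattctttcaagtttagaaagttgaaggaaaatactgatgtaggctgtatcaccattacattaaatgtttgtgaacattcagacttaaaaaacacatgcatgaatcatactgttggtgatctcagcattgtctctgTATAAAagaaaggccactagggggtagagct

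A GC box, the sequence bound by SP1-type factors, was present on either strand in 18 of the 30 promoters (60.0%), against 42.64% of all 35116 promoters in the table. It lay in 9 of the 10 promoters of genes called in at least 1 comparison, where ADAM19 was the exception, and in 9 of the 20 promoters of genes not called. TATAAA was searched on both strands too and was present in 6 of the 30, against 10.72% of all promoters. None of these 6 belonged to a called gene: they were the promoters of MMP8, MMP10, MMP20, MMP21, MMP26 and ADAMTSL2. The AP-1 site TGAGTCA and the cyclic AMP element TGACGTCA matched 0 of the 30 windows, against 4.203% and 1.646% of all promoters. The called genes MMP1, ADAM9 and TIMP2 had no promoter sequence to search, nor had MMP12 and MMP13, so no count here covers them. The ETS site CCGGAAG matched 1 of the 30, that of ADAM17, against 8.517% of all. The median share of G and C was 73.6% in the promoters of called genes and 57.4% in those of genes not called, against 58.0% over all promoters. These matches describe letters in a window of the reference and show no binding.

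The genes called were TIMP2, TIMP3, ADAMTSL5, MMP1, MMP14 and 8 membrane ADAMs. In each comparison the share of the set called was near or below that of all named genes, which was not tested. With FAM46A-shRNA#2 against scramble, 3 of the 47 genes were called higher (6.38%, against 12.1% of all named genes) and 6 lower (12.8%, against 9.54%), together 9 (19.1%, against 21.6%). With FAM46A-shRNA#4 against scramble, 2 were higher (4.26%, against 15.7%) and 7 lower (14.9%, against 10.4%), again 9 in all (19.1%, against 26.1%). Both hairpins changed 5 genes the same way (10.6%, against 13.7% of all named genes) and 1 gene, MMP1, in opposite ways (2.13%, against 0.672%). Over all 3 comparisons 13 genes were called at least once (27.7%, against 35.1%). In both comparisons with scramble the shares called higher lay below those of all named genes and the shares called lower a little above them. This difference was not tested, and the comparison between the hairpins, given further below, went the other way. With a replicate block the counts of lower genes were 7 with FAM46A-shRNA#2 and 8 with FAM46A-shRNA#4. The comparisons with scramble share the same 2 scramble arrays. Without replicate 2 of FAM46A-shRNA#2, the count of genes higher with that hairpin was 1.

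The spread of a gene over the 6 arrays, its highest minus its lowest log2 value, had a median of 0.161 over the 47 genes, against 0.287 over all named genes. The median log2 difference of the set was -0.018 with FAM46A-shRNA#2 and -0.040 with FAM46A-shRNA#4, against -0.0018 and 0.0045 over all named genes. Genes called in at least 1 comparison were also counted by role, with ADAMs known from testis kept apart whatever their catalytic site. Among the other ADAMs, 6 of 9 with a catalytic site and 2 of 3 without one were called. Of the rest, 2 of 4 TIMPs, 1 of 5 ADAMTS-like genes, 2 of 18 MMPs and 0 of 7 ADAMs known from testis were called. Of all named genes, 35.1% were called.

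**Figure D1:**
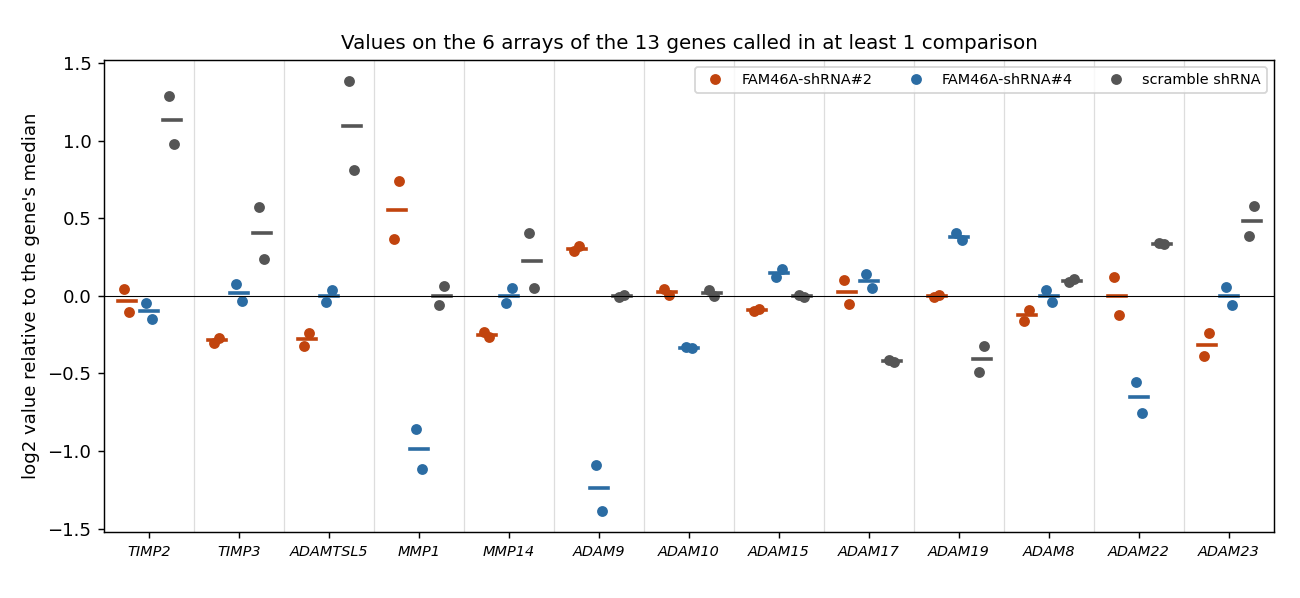
Log2 values, relative to the median of each gene over the arrays, of the 13 genes called in at least 1 comparison, with 1 point per array and a bar for the mean of the 2 arrays of a group. TIMP2 and ADAMTSL5 lie lower with both hairpins than with scramble, ADAM17 and ADAM19 lie higher with both, and MMP1 and ADAM9 lie above 0 with FAM46A-shRNA#2 and below 0 with FAM46A-shRNA#4.

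Among the inhibitors, TIMP2 fell more than 2-fold with both hairpins. TIMP2, a soluble inhibitor that also takes part in the activation of a gelatinase at the cell surface together with MMP14, stood at 0.04 and -0.10 with FAM46A-shRNA#2, at -0.04 and -0.15 with FAM46A-shRNA#4 and at 1.29 and 0.98 with scramble. All 4 hairpin arrays lay below both scramble arrays. The difference was -1.17 ± 0.11 with FAM46A-shRNA#2 (2.24-fold lower, limma adjusted p 0.00169) and -1.23 ± 0.11 with FAM46A-shRNA#4 (2.35-fold lower, adjusted p 0.000968). Between the hairpins it was 0.065 (95% interval -0.21 to 0.34, adjusted p 0.816). CEP295NL, a gene that overlaps TIMP2 in the RefSeq annotation and was looked up after the values were seen, had differences of -0.32 (adjusted p 0.144) and -0.43 (adjusted p 0.0572) with FAM46A-shRNA#2 and FAM46A-shRNA#4. The first passed without either or both arrays of FAM46A-shRNA#4 (adjusted p 0.0452). The second passed with a replicate block (adjusted p 0.0213), with protein-coding genes only (0.0366) and without replicate 1 of FAM46A-shRNA#4 (-0.62, 0.0150).

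TIMP3, an inhibitor that is held in the matrix and also blocks ADAM17, stood at -0.30 and -0.27 with FAM46A-shRNA#2, at 0.08 and -0.03 with FAM46A-shRNA#4 and at 0.57 and 0.24 with scramble. The scramble arrays were highest and those of FAM46A-shRNA#2 lowest, with no overlap between groups. TIMP3 fell by 0.69 ± 0.11 with FAM46A-shRNA#2 (adjusted p 0.00820), a call that ended without replicate 1 of that hairpin (-0.68, adjusted p 0.0510). With FAM46A-shRNA#4 the difference was -0.38 ± 0.11 (adjusted p 0.0515), just over the threshold. It passed with a replicate block (adjusted p 0.0301), with protein-coding genes only (0.0337), after quantile normalization (0.0452) or array centring (0.0481), with a variance trend (0.0493) and without replicate 2 of scramble (-0.55, 0.0082). Between the hairpins the difference was -0.31 (adjusted p 0.136), and it passed after quantile normalization (0.0349) and without either scramble array or both (0.0322). Its 2 probe sets had the same sign, with -0.79 and -0.59 for FAM46A-shRNA#2 and -0.48 and -0.29 for FAM46A-shRNA#4. Taken alone, the first passed with FAM46A-shRNA#2 (limma adjusted p 0.00287) and with FAM46A-shRNA#4 (0.0115). The second passed with neither (0.0502 and 0.277). TIMP1, the other widely secreted inhibitor, had differences of -0.070 (95% interval -0.21 to 0.064) with FAM46A-shRNA#2 and 0.014 (-0.12 to 0.15) with FAM46A-shRNA#4. TIMP4 had differences of 0.010 (-0.15 to 0.17) with FAM46A-shRNA#2 and -0.11 (-0.26 to 0.047) with FAM46A-shRNA#4, so neither was called.

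ADAMTSL5, a secreted protein that binds fibrillin microfibrils, had the largest difference of the set with FAM46A-shRNA#2. It stood at -0.32 and -0.24 with FAM46A-shRNA#2, at -0.04 and 0.04 with FAM46A-shRNA#4 and at 1.38 and 0.81 with scramble. Both hairpin groups lay below scramble, whose arrays lay further apart than those of either hairpin. ADAMTSL5 fell by 1.38 ± 0.17 with FAM46A-shRNA#2 (2.60-fold, adjusted p 0.00361) and by 1.10 ± 0.17 with FAM46A-shRNA#4 (2.14-fold, adjusted p 0.00595). The difference between the hairpins was -0.28 (95% interval -0.70 to 0.14, adjusted p 0.384), and it passed without either scramble array or both (0.0403). With 1 array left out, the difference ran from -1.66 to -1.09 with FAM46A-shRNA#2 and from -1.38 to -0.81 with FAM46A-shRNA#4, and the calls held. ADAMTSL1, ADAMTSL2, ADAMTSL3 and ADAMTSL4 were not called.

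Of the MMPs, MMP1 moved in opposite directions with the 2 hairpins. MMP1, the interstitial collagenase that cuts fibrillar collagens, stood at 0.37 and 0.74 with FAM46A-shRNA#2, at -0.86 and -1.11 with FAM46A-shRNA#4 and at -0.06 and 0.06 with scramble. The scramble arrays lay between the hairpins, and no groups overlapped. MMP1 fell by 0.99 ± 0.14 with FAM46A-shRNA#4 (1.98-fold, adjusted p 0.00433), and this call held with any array left out. It was higher by 0.56 ± 0.14 with FAM46A-shRNA#2 (1.47-fold, adjusted p 0.0387). That call ended without replicate 1 of scramble (0.49, adjusted p 0.160), without replicate 2 of scramble (0.62, 0.0875) and without replicate 2 of FAM46A-shRNA#2 (0.37, 0.133).

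MMP1 lies in a cluster of MMP genes on chromosome 11, of which MMP8, MMP10, MMP12, MMP13, MMP20 and MMP27 were also measured. None of these neighbours was called in any comparison. MMP13, a collagenase like MMP1 and MMP8, had a difference of 0.14 with each hairpin. WTAPP1, a transcribed pseudogene that overlaps MMP1 in the RefSeq annotation and was looked up after the values were seen, went the same ways as MMP1. Its difference was 0.52 with FAM46A-shRNA#2 (adjusted p 0.0133) and -0.40 with FAM46A-shRNA#4 (adjusted p 0.0276), and 0.92 between the hairpins (adjusted p 0.00381). Its calls against scramble ended without either scramble array (adjusted p 0.0635 and 0.0508 with FAM46A-shRNA#2, 0.0940 and 0.102 with FAM46A-shRNA#4). The call with FAM46A-shRNA#4 also ended without either array of that hairpin (0.121 and 0.0864). Whether probe sets of MMP1 and WTAPP1 share sequence was not tested.

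MMP14, a membrane-anchored collagenase that activates other MMPs, stood at -0.23 and -0.26 with FAM46A-shRNA#2, at -0.05 and 0.05 with FAM46A-shRNA#4 and at 0.41 and 0.05 with scramble. The arrays of FAM46A-shRNA#2 were lowest, while those of FAM46A-shRNA#4 reached the lower scramble array. MMP14 fell by 0.48 ± 0.12 with FAM46A-shRNA#2 (adjusted p 0.0330), a call that ended without replicate 1 of scramble (-0.30, adjusted p 0.0549), without either array of FAM46A-shRNA#2 (0.120 and 0.131) and without either array of FAM46A-shRNA#4 (0.0558 each). With FAM46A-shRNA#4 its difference was -0.23 (95% interval -0.51 to 0.054, adjusted p 0.230), which passed without replicate 2 of scramble (-0.41, 0.0175). Between the hairpins the difference of -0.25 (adjusted p 0.234) passed without either scramble array or both (0.0499). The 5 other membrane-type MMPs (MMP15, MMP16, MMP17, MMP24 and MMP25) were not called. The 2 probe sets of MMP24 disagreed in sign between the hairpins, with -0.43 and 0.19 for FAM46A-shRNA#2 minus FAM46A-shRNA#4. Taken alone, the first passed (limma adjusted p 0.0451) and the second did not (0.227). The other MMPs not called were the stromelysins MMP10 and MMP11, the macrophage elastase MMP12, the matrilysin MMP26, and MMP19, MMP20, MMP21, MMP27 and MMP28.

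Of the sheddases best known for growth factor and Notch release, ADAM17 rose with both hairpins and ADAM10 fell with FAM46A-shRNA#4. ADAM17, which releases tumour necrosis factor and several ligands of the epidermal growth factor receptor, stood at 0.10 and -0.05 with FAM46A-shRNA#2, at 0.14 and 0.05 with FAM46A-shRNA#4 and at -0.41 and -0.42 with scramble. All 4 hairpin arrays lay above both scramble arrays. ADAM17 rose by 0.44 ± 0.068 with FAM46A-shRNA#2 (1.36-fold, adjusted p 0.00675) and by 0.51 ± 0.068 with FAM46A-shRNA#4 (1.43-fold, adjusted p 0.00319). Between the hairpins the difference was -0.072 (95% interval -0.24 to 0.094). IAH1, a gene that overlaps ADAM17 in the annotation and was looked up after the values were seen, had differences of 0.37 with FAM46A-shRNA#2 (adjusted p 0.00987, and 0.0645 without replicate 1 of that hairpin) and -0.074 with FAM46A-shRNA#4 (adjusted p 0.508).

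ADAM10, which cuts Notch receptors and E-cadherin, stood at 0.048 and 0.0026 with FAM46A-shRNA#2, at -0.33 and -0.34 with FAM46A-shRNA#4 and at 0.039 and -0.0026 with scramble. Only the FAM46A-shRNA#4 arrays stood apart. ADAM10 fell by 0.35 ± 0.048 with FAM46A-shRNA#4 (1.28-fold, adjusted p 0.00363), and with FAM46A-shRNA#2 its difference was 0.0069 (95% interval -0.11 to 0.12, adjusted p 0.955).

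ADAM9, another membrane sheddase, had the largest fall of the set with FAM46A-shRNA#4. It stood at 0.29 and 0.32 with FAM46A-shRNA#2, at -1.09 and -1.38 with FAM46A-shRNA#4 and at -0.01 and 0.01 with scramble. As for MMP1, scramble lay between the hairpins without overlap. ADAM9 fell by 1.24 ± 0.096 with FAM46A-shRNA#4 (2.36-fold, adjusted p 0.000623), a call that held with any array left out. With FAM46A-shRNA#2 the difference was 0.30 ± 0.096 (adjusted p 0.0759) and did not pass. It passed after quantile normalization (0.39, adjusted p 0.0207) and without either array of FAM46A-shRNA#4 (0.30, adjusted p 0.0159). The overlapping gene TM2D2, looked up in the same way, had differences of 0.031 and 0.11 with FAM46A-shRNA#2 and FAM46A-shRNA#4.

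ADAM19, a sheddase of neuregulins, rose with both hairpins. It stood at -0.0044 and 0.0044 with FAM46A-shRNA#2, at 0.40 and 0.36 with FAM46A-shRNA#4 and at -0.49 and -0.32 with scramble. The 3 groups lay apart, with scramble lowest. ADAM19 rose by 0.40 ± 0.067 with FAM46A-shRNA#2 (adjusted p 0.00891) and by 0.785 ± 0.067 with FAM46A-shRNA#4 (1.72-fold, adjusted p 0.000791). The first call ended without replicate 1 (0.41, adjusted p 0.0517) or replicate 2 (0.40, 0.0519) of FAM46A-shRNA#2.

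ADAM8, first described in leukocytes, stood at -0.16 and -0.09 with FAM46A-shRNA#2, at 0.04 and -0.04 with FAM46A-shRNA#4 and at 0.09 and 0.11 with scramble. It fell by 0.22 ± 0.055 with FAM46A-shRNA#2 (adjusted p 0.0330). This small difference lost its call without replicate 1 (adjusted p 0.106) or replicate 2 (0.115) of scramble and without replicate 1 (0.167) or replicate 2 (0.0739) of FAM46A-shRNA#2. ADAM15 is a membrane ADAM with an integrin-binding motif. Its arrays stood at -0.10 and -0.085 with FAM46A-shRNA#2, at 0.12 and 0.17 with FAM46A-shRNA#4 and at 0.0082 and -0.0082 with scramble. ADAM15 was not called against scramble with FAM46A-shRNA#2 (-0.093, limma adjusted p 0.246) or with FAM46A-shRNA#4 (0.15, limma adjusted p 0.0692). ADAM12, ADAM28 and ADAM33 were not called in any comparison.

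ADAM22 and ADAM23 are adhesion receptors of neurons that lack a working catalytic site and bind LGI proteins. ADAM23 fell with both hairpins and ADAM22 with FAM46A-shRNA#4. ADAM23 stood at -0.39 and -0.24 with FAM46A-shRNA#2, at 0.06 and -0.06 with FAM46A-shRNA#4 and at 0.39 and 0.58 with scramble. The groups did not overlap, and scramble was highest. ADAM23 fell by 0.795 ± 0.089 with FAM46A-shRNA#2 (1.73-fold, adjusted p 0.00255) and by 0.48 ± 0.089 with FAM46A-shRNA#4 (1.40-fold, adjusted p 0.0105), of which the second call ended without replicate 2 of FAM46A-shRNA#4 (-0.42, adjusted p 0.0587). Between the hairpins the difference of -0.31 did not pass (adjusted p 0.0675), though it did with protein-coding genes only (0.0484) and after quantile normalization (-0.39, 0.0236).

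ADAM22 stood at 0.12 and -0.12 with FAM46A-shRNA#2, at -0.55 and -0.755 with FAM46A-shRNA#4 and at 0.34 and 0.33 with scramble. The order ran from scramble down to FAM46A-shRNA#4 with no overlap. ADAM22 fell by 0.99 ± 0.10 with FAM46A-shRNA#4 (1.99-fold, adjusted p 0.00133), while its difference of -0.34 ± 0.10 with FAM46A-shRNA#2 did not pass (adjusted p 0.0634). It passed with a replicate block (adjusted p 0.0231), with protein-coding genes only (0.0438) and without replicate 1 of FAM46A-shRNA#2 (-0.46, 0.0483). ADAM11, of the same kind, was not called.

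The other 34 genes were not called in any comparison. Their log2 differences lay between -0.12 and 0.14 with FAM46A-shRNA#2 and between -0.16 and 0.14 with FAM46A-shRNA#4. The ADAMs known from testis (ADAM2, ADAM18, ADAM20, ADAM21, ADAM29, ADAM30 and ADAM32) had spreads over the 6 arrays of 0.0276 to 0.154, against a median of 0.287 over all named genes. As levels cannot be read, a silent gene and a steadily expressed one look alike here.

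**Figure D2:**
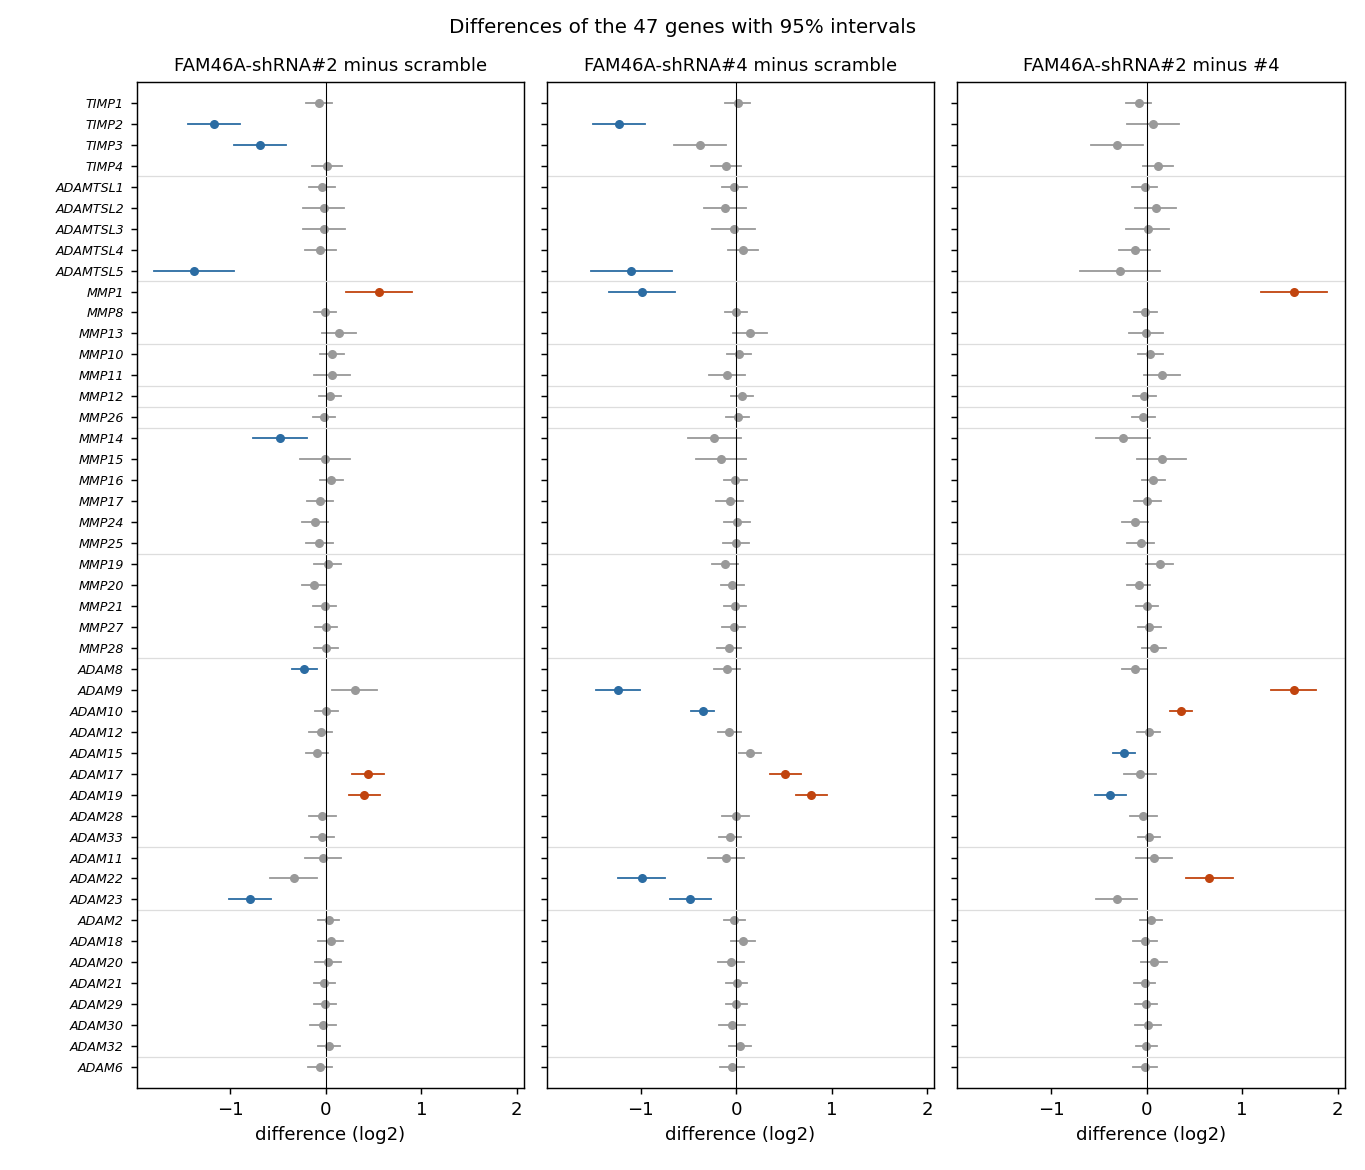
Differences of all 47 genes on the log2 scale (points) with their 95% intervals (lines), for each hairpin minus scramble and for FAM46A-shRNA#2 minus FAM46A-shRNA#4, with red for genes called higher, blue for genes called lower and grey for genes not called. Most intervals include 0. The longest distances from 0 in the panel between the hairpins belong to MMP1 and ADAM9, both at 1.54.

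The hairpins were then compared directly, which does not use the scramble arrays for the difference itself. FAM46A-shRNA#2 against FAM46A-shRNA#4, 4 of the 47 genes were higher (8.51%, against 6.64% of all named genes) and 2 lower (4.26%, against 8.63%), together 6 (12.8%, against 15.3%). MMP1 was higher with FAM46A-shRNA#2 by 1.54 ± 0.14 (2.91-fold, adjusted p 0.00286) and ADAM9 by 1.54 ± 0.096 (2.91-fold, adjusted p 0.00154). By absolute difference between the hairpins they ranked 11 and 12 of the 14884 named genes. Both calls held with any array left out. ADAM22 was higher by 0.65 ± 0.10 (adjusted p 0.0107) and ADAM10 by 0.36 ± 0.048 (adjusted p 0.00710). ADAM19 was lower with FAM46A-shRNA#2 by 0.38 ± 0.067 (adjusted p 0.0159) and ADAM15 by 0.24 ± 0.047 (adjusted p 0.0221). The call of ADAM22 ended without replicate 1 of FAM46A-shRNA#2 (0.53, adjusted p 0.0524) or replicate 2 of FAM46A-shRNA#4 (0.55, 0.0532), and that of ADAM10 without replicate 1 of FAM46A-shRNA#2 (0.34, 0.0547). The calls of ADAM15 and ADAM19 ended without any 1 of the 4 hairpin arrays, so the count of lower genes was then 0, while without either scramble array it was 5. Without replicate 1 of FAM46A-shRNA#2 the count of higher genes was 2.

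Genes that act around these proteases were counted in lists by function. Of all named genes, 12.1% were higher and 9.54% lower with FAM46A-shRNA#2, and 15.7% were higher and 10.4% lower with FAM46A-shRNA#4. The counts of every list below are to be read beside these shares, and no departure from them was tested. Of 24 measured genes of protease activation and membrane support, 3 were higher and 6 lower with FAM46A-shRNA#2, and 1 was higher and 7 lower with FAM46A-shRNA#4. PCSK5, a proprotein convertase, fell by 0.60 ± 0.076 with FAM46A-shRNA#2 and fell by 1.09 ± 0.076 with FAM46A-shRNA#4. PCSK6, a related convertase, fell by 0.42 ± 0.066 with FAM46A-shRNA#2 and fell by 0.55 ± 0.066 with FAM46A-shRNA#4. BSG, an inducer of MMPs, fell by 0.75 ± 0.051 with FAM46A-shRNA#4. Its difference with FAM46A-shRNA#2 was -0.28 ± 0.051, a call that ended without replicate 1 of scramble (adjusted p 0.0629) or either array of that hairpin (0.0635 and 0.0690). HPN, the membrane serine protease hepsin, fell by 0.91 ± 0.091 with FAM46A-shRNA#4. Its call with FAM46A-shRNA#2 (-0.37 ± 0.091) ended without replicate 2 of scramble (adjusted p 0.117) or either array of that hairpin (0.144 and 0.120). The count of genes lower with FAM46A-shRNA#2 ran from 2 to 7 with 1 array left out, and that of genes higher from 1 to 3, or from 0 to 2 with FAM46A-shRNA#4.

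Of 11 measured inhibitors outside the TIMP family, 1 was higher and 3 lower with FAM46A-shRNA#2, and 0 were higher and 3 lower with FAM46A-shRNA#4. AHSG, the plasma protein fetuin-A, fell by 1.91 ± 0.175 with FAM46A-shRNA#2 and fell by 0.92 ± 0.175 with FAM46A-shRNA#4, the second call ending without replicate 2 of scramble (-0.79, adjusted p 0.0589). CST3, the cysteine protease inhibitor cystatin C, fell by 0.94 ± 0.14 with FAM46A-shRNA#2 and fell by 1.27 ± 0.14 with FAM46A-shRNA#4. TFPI, an inhibitor of the tissue factor pathway, fell by 1.19 ± 0.054 with FAM46A-shRNA#2 and fell by 0.42 ± 0.054 with FAM46A-shRNA#4. RECK, a membrane-anchored MMP inhibitor, was higher by 0.52 ± 0.086 with FAM46A-shRNA#2 (adjusted p 0.00869, and 0.0568 without replicate 1 of that hairpin) and had a difference of 0.059 ± 0.086 with FAM46A-shRNA#4 (adjusted p 0.731). With a replicate block 2 of these inhibitors were higher with FAM46A-shRNA#2.

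**Figure D3:**
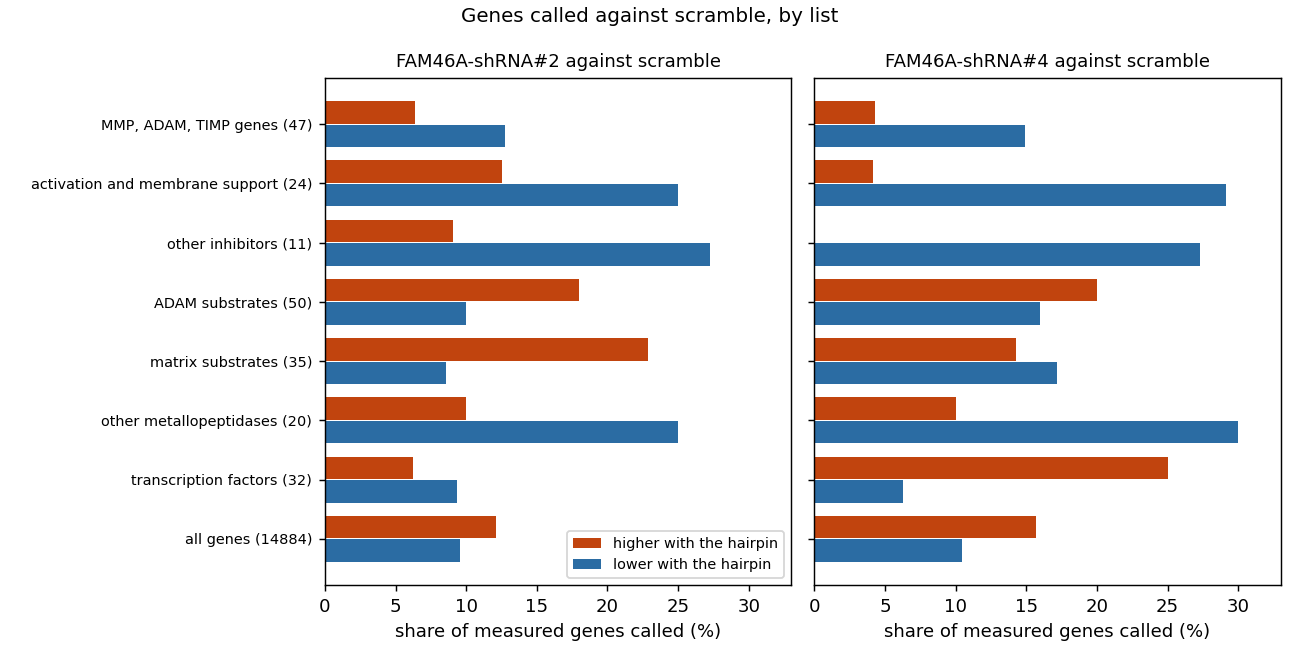
Share of measured genes called higher (red) or lower (blue) against scramble, in percent, for the 47 genes, for 6 lists of genes that act around them and for all named genes, with the number of measured genes in brackets. In the MMP, ADAM and TIMP set the shares of genes called higher (6.38% and 4.26%) lie below those of all named genes (12.1% and 15.7%).

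Of 50 measured cell surface substrates of ADAMs, 9 were higher and 5 lower with FAM46A-shRNA#2, and 10 were higher and 8 lower with FAM46A-shRNA#4. Among all named genes the shares were 12.1% and 9.54% with FAM46A-shRNA#2, and 15.7% and 10.4% with FAM46A-shRNA#4. KITLG, the ligand of the KIT receptor, rose by 2.56 ± 0.18 with FAM46A-shRNA#2 and by 2.41 ± 0.18 with FAM46A-shRNA#4, calls that were lost with a variance prior with a trend on the gene mean (adjusted p 0.427 and 0.446). EREG, an epidermal growth factor receptor ligand shed by ADAM17, rose by 1.24 ± 0.19 with FAM46A-shRNA#2 and by 1.60 ± 0.19 with FAM46A-shRNA#4. NRP1, a co-receptor of semaphorins, rose by 1.31 ± 0.11 with FAM46A-shRNA#2 and by 1.64 ± 0.11 with FAM46A-shRNA#4. CD44, a hyaluronan receptor cut by ADAM10 and MMP14, rose by 1.55 ± 0.13 with FAM46A-shRNA#2 and by 0.76 ± 0.13 with FAM46A-shRNA#4, the second call ending under quantile normalization (adjusted p 0.0779). Of 35 measured matrix substrates, 8 were higher and 3 lower with FAM46A-shRNA#2, and 5 were higher and 6 lower with FAM46A-shRNA#4. MATN3, a cartilage matrix protein, rose by 1.54 ± 0.085 with FAM46A-shRNA#2 and by 1.19 ± 0.085 with FAM46A-shRNA#4. VTN, vitronectin, fell by 1.07 ± 0.078 with FAM46A-shRNA#2 and fell by 1.59 ± 0.078 with FAM46A-shRNA#4. THBS1, thrombospondin 1, rose by 1.63 ± 0.15 with FAM46A-shRNA#4, and its call with FAM46A-shRNA#2 (0.74 ± 0.15) ended without either scramble array (adjusted p 0.0874 and 0.0608). VCAN, the proteoglycan versican, rose by 1.20 ± 0.075 with FAM46A-shRNA#2, and its call with FAM46A-shRNA#4 (0.39 ± 0.075) ended without replicate 1 of scramble (adjusted p 0.0614) or of that hairpin (0.0663). With 1 array left out, the count of matrix substrates higher with FAM46A-shRNA#2 ran from 4 to 8, that of those higher with FAM46A-shRNA#4 from 3 to 6, and that of ADAM substrates lower with FAM46A-shRNA#4 from 4 to 9.

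Of 20 other measured metallopeptidases, 2 were higher and 5 lower with FAM46A-shRNA#2, and 2 were higher and 6 lower with FAM46A-shRNA#4. The brush border aminopeptidase ANPEP fell by 1.38 ± 0.11 with FAM46A-shRNA#2 and fell by 1.08 ± 0.11 with FAM46A-shRNA#4. ERAP1, a peptide-trimming enzyme of the endoplasmic reticulum, fell by 0.77 ± 0.075 with FAM46A-shRNA#4, and ECE1, which processes endothelin, fell by 0.69 ± 0.080. Neither passed with FAM46A-shRNA#2 (-0.24 ± 0.075 and -0.17 ± 0.080). LMLN, a leishmanolysin-like peptidase, rose by 0.72 ± 0.075 with FAM46A-shRNA#4, and its call with FAM46A-shRNA#2 (0.36 ± 0.075) ended without replicate 2 of scramble (adjusted p 0.0826) or either array of that hairpin (0.109 and 0.0578). With 1 array left out, the count of those lower ran from 2 to 4 with FAM46A-shRNA#2 and from 3 to 5 with FAM46A-shRNA#4, and that of those higher from 0 to 1 and from 1 to 2. With a replicate block 4 were higher with FAM46A-shRNA#2.

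Of 32 measured transcription factors known to bind MMP promoters, 2 were higher and 3 lower with FAM46A-shRNA#2, and 8 were higher and 2 lower with FAM46A-shRNA#4. JUN and ATF3, of the AP-1 and ATF families, rose by 0.76 ± 0.099 and 1.18 ± 0.064 with FAM46A-shRNA#4. With FAM46A-shRNA#2 their differences were -0.091 ± 0.099 and 0.15 ± 0.064, and both were lower than with FAM46A-shRNA#4 (-0.85, adjusted p 0.00508, and -1.03, adjusted p 0.00154). FOSL2, a partner of JUN, fell by 0.93 ± 0.063 with FAM46A-shRNA#2 and fell by 0.91 ± 0.063 with FAM46A-shRNA#4. ETV4, an ETS factor, rose by 0.64 ± 0.053 with FAM46A-shRNA#2, and its call with FAM46A-shRNA#4 (0.20 ± 0.053) ended without any 1 array (adjusted p up to 0.154). With 1 array left out, the number of factors higher ran from 2 to 4 with FAM46A-shRNA#2 and from 3 to 7 with FAM46A-shRNA#4, and the number lower with FAM46A-shRNA#2 from 1 to 3. With a replicate block 4 factors were higher with FAM46A-shRNA#2.

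Markers of cell types were counted in the same way. Of all named genes, 12.1% were higher and 9.54% lower with FAM46A-shRNA#2, and 15.7% and 10.4% with FAM46A-shRNA#4. Of 10 measured colon epithelium markers, 0 were higher and 5 lower with FAM46A-shRNA#2, and 1 was higher and 5 lower with FAM46A-shRNA#4. With 1 array left out, the number lower ran from 2 to 4 and from 3 to 5. The enterocyte genes SI (-1.96 and -1.03), KRT20 (-1.17 and -1.20), GPA33 (-0.93 and -1.02) and VIL1 (-0.48 and -0.74) were among those lower with FAM46A-shRNA#2 and FAM46A-shRNA#4. The calls of KRT20 ended without either array of the hairpin compared (adjusted p 0.0754 and 0.0874 with FAM46A-shRNA#2, 0.0612 and 0.0672 with FAM46A-shRNA#4), and that of SI with FAM46A-shRNA#4 without replicate 1 of scramble (0.0674). The calls of GPA33 ended with FAM46A-shRNA#2 without either scramble array or replicate 1 of the hairpin (0.0502, 0.0990 and 0.0767), and with FAM46A-shRNA#4 without replicate 2 of scramble or replicate 1 of the hairpin (0.0650 and 0.0737). Of 9 measured markers of fibroblasts, muscle and leukocytes, 0 were higher and 3 lower with FAM46A-shRNA#2, and 1 was higher and 3 lower with FAM46A-shRNA#4. CD68, a lysosomal protein of macrophages and other cells, had differences of -1.88 with FAM46A-shRNA#2 and -2.14 with FAM46A-shRNA#4, and in the same order LAPTM5 of -0.89 and -0.66 and THY1 of -0.19 and -0.21. TAGLN, an actin-binding protein of muscle, rose by 1.11 with FAM46A-shRNA#4, against -0.23 with FAM46A-shRNA#2 (adjusted p 0.0512, and 0.0356 with a replicate block). The calls of THY1 ended without any 1 array (adjusted p up to 0.184). Those of LAPTM5 ended with FAM46A-shRNA#2 without replicate 1 of that hairpin (0.0564) and with FAM46A-shRNA#4 without either of its arrays (0.0623 and 0.102). The number of these markers called lower ran from 1 to 2 with 1 array left out, for either hairpin, and with a replicate block 1 was higher with FAM46A-shRNA#2. Summed levels and markers at 0 cannot be read from centred values, and the part of cell makeup in the results for the proteases was not tested.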

How the data were processed

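Total RNA of Caco-2 cells (100 ng per sample) was labelled with the Affymetrix WT PLUS kit, per the labels' protocols. The log2 values were deposited by the authors relative to the median of each probe set over the 6 arrays: all 48144 medians lay within 1e-06 of 0, and values ran from -2.65 to 3.53. The labels and files name no logarithm base, summarisation, background correction or normalization (not given in the sources used here); base 2 was assumed. Names came from the platform table and RefSeq: 16098 probe sets had 1 symbol, 32046 none, and 779 of 14884 genes had several probe sets, which were averaged.

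All 6 arrays, in the 3 groups of the sample titles, entered 1 limma 3.58.1 fit (R 4.3.3, lmFit and eBayes with no variance trend and degrees of freedom of 3 from residuals and 3.09 from the prior), with Benjamini-Hochberg adjustment over all 14884 genes and calls at an adjusted p under 0.05. The median standard error was 0.0657, and the number of arrays limits the precision. In 10 simulated draws 200 genes were changed by 0.5 (log2). Of these, 93.65% were recovered for FAM46A-shRNA#2 against scramble, 93.55% for FAM46A-shRNA#4 against scramble and 93.05% between the hairpins. The shares of calls that were false were 4.77%, 6.33% and 5.13%. The draws used independent normal noise from the fitted variances, without deviations shared by same-numbered arrays, and changed far fewer genes than were called in the data. Changes smaller than 0.5 were not simulated.

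The labels number the arrays of each group 1 and 2. Same-numbered arrays deviated together from their group means, with correlations of 0.199 (FAM46A-shRNA#2 and FAM46A-shRNA#4), 0.179 (FAM46A-shRNA#2 and scramble) and 0.119 (FAM46A-shRNA#4 and scramble), so values with a replicate block are given where they change a call. The labels name no shared source.

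All 47 members are accounted for. Those called in at least 1 comparison are named with their array values, and per list up to 4 called genes with the largest difference from scramble. The members and lists were chosen with earlier results of these data known. Lists were counted with no set test. Alternatives were quantile normalization, array centring, array weights, a robust prior, a variance trend, a replicate block, separate probe sets, protein-coding genes only, only the arrays compared, an adjusted p under 0.01, a 2-fold minimum and each array left out. Promoters came from RefSeq (GRCh38.p14). Tables and figures were made in Python 3.11.15 with pandas 2.3.3 and matplotlib 3.10.9.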

Additional observations from a re-analysis of the deposited data

Results flagged for a closer look

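The hairpins differed from each other in 6 of the 47 genes by the direct test of FAM46A-shRNA#2 against FAM46A-shRNA#4 (limma, adjusted p under 0.05). MMP1 was higher with FAM46A-shRNA#2 by 1.54 on the log2 scale and ADAM9 also by 1.54. ADAM22 was higher by 0.65 and ADAM10 by 0.36. ADAM19 (-0.38) and ADAM15 (-0.24) were lower with FAM46A-shRNA#2. With 2 arrays per group, no test of single outlying arrays was made.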

How the results depend on the processing

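The differences of single genes followed here were 24 called ones of the set and that of ADAM9 with FAM46A-shRNA#2. Array weights, centring of each array, protein-coding genes only, a robust prior and a variance trend changed no call among them. Nor did separate probe sets for genes with 1 probe set. TIMP3 with FAM46A-shRNA#2 passed on 1 of its 2 probe sets (limma adjusted p 0.00287) and just missed on the other (0.0502). An adjusted p under 0.01 ended 7 and a 2-fold minimum 17 calls. In 150 values with 1 array left out, 27 lost a call and 2 gained one. The count of genes higher with FAM46A-shRNA#2 was 3, between 1 and 4 with 1 array left out and 0 with a 2-fold minimum. The count of those lower was 6, between 4 and 5 with 1 array left out and 2 with a 2-fold minimum. With FAM46A-shRNA#4, 2 were higher (0 with a 2-fold minimum) and 7 lower (6 to 9 with 1 array left out, 3 with a 2-fold minimum). Between the hairpins, 4 were higher (2 to 4 with 1 array left out, 2 with a 2-fold minimum). The 2 lower ones became 4 under quantile normalization, 5 with only the 4 hairpin arrays, 0 to 5 with 1 array left out, and 0 at an adjusted p under 0.01 or with a 2-fold minimum. The difference of JUN with FAM46A-shRNA#2 (-0.091, not called) ran from -0.21 to 0.023 with 1 array left out, and that of RECK with FAM46A-shRNA#4 (0.059, not called) from -0.057 to 0.17. Among the named list and overlapping genes, quantile normalization ended calls against scramble besides that of CD44. With FAM46A-shRNA#2 these were THBS1 (0.60, limma adjusted p 0.0765), LMLN (0.26, 0.0855), GPA33 (-0.78, 0.0620) and THY1 (-0.18, 0.0573). With FAM46A-shRNA#4 they were VCAN (0.28, 0.117), ETV4 (0.14, 0.126), SI (-0.77, 0.0529) and WTAPP1 (-0.44, 0.0966). A stricter threshold can only lower a count. The cause of the other shifts, up or down, was not tested. A filter on dim probe sets was not run, since centred values hold no level, and signal over background limits what can be said of genes not called.

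With a replicate block 3598, 4227 and 2637 named genes were called for FAM46A-shRNA#2 against scramble, FAM46A-shRNA#4 against scramble and FAM46A-shRNA#2 against FAM46A-shRNA#4, in place of 3220, 3884 and 2272. Among the 47 genes the block gave 3 higher and 7 lower with FAM46A-shRNA#2, 2 higher and 8 lower with FAM46A-shRNA#4, and 4 higher and 2 lower between the hairpins. ADAM22 with FAM46A-shRNA#2 (adjusted p 0.0231) and TIMP3 with FAM46A-shRNA#4 (0.0301) were the calls it added, and it ended none among them. Calls of members outside the 24 that other settings added stand in the report beside those genes.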
